A study of Mus musculus with 16 samples.

Results

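Heart muscle draws most of its energy from long-chain fatty acids, and 36 genes that encode the proteins of that route in the mouse ventricle were followed here through pressure overload and treatment with THZ1. The genes were listed by name, from entry of the fatty acid into the cell to the last step of its oxidation, and each had to reach a normalized count of 10 in at least 4 of 16 libraries. All 36 did, out of 22372 genes in the table and 13331 that reached the same level. By role they were 4 genes of uptake, 4 of activation and thioesterases, 5 of the carnitine route into mitochondria, 3 of malonyl-CoA metabolism, 11 of beta-oxidation, 3 of the electron transfer flavoprotein, and 6 of storage and lipolysis. The rule names genes by role and uses no value beyond that minimum level, but it was drawn up with earlier results of these data known.

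Fatty acids enter cardiomyocytes through transporters such as CD36, are bound in the cytosol by FABP3 and are activated to acyl-CoA, after which carnitine carries them across the mitochondrial membranes. Beta-oxidation then shortens the chain by repeated rounds of dehydrogenation, hydration, dehydrogenation and thiolysis, and the electron transfer flavoprotein hands the electrons of the first dehydrogenation to the respiratory chain. Failing hearts are known for a lowered expression of these genes, which nuclear receptors of the PPAR and ERR families and the coactivator PGC-1α control.

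The samples were pieces of ventricle from C57BL/6J mice, 10 to 12 weeks old at the start, with no transgene or deletion in the labels. The study's methods describe the mice as male and give a slightly narrower range of ages. Sham-Veh mice had the operation without constriction of the aorta and received vehicle, Sham-THZ1 mice had the same operation and THZ1, TAC-Veh mice had transverse aortic constriction (TAC, a surgical pressure overload of the left ventricle) and vehicle, and TAC-THZ1 mice had TAC and THZ1. THZ1, a covalent inhibitor of the transcriptional kinases CDK7, CDK12 and CDK13, was injected into the peritoneum 2 times a day, 10 mg/kg each time, starting on day 1 after the operation and ending on day 60, as the labels give it, whereas the study's methods describe daily injections. Each group held 4 libraries, labelled as separate replicates, and the constriction acts on the whole heart while the drug reaches every organ. Values are normalized counts, that is, reads per gene divided by the size factor of the library.

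The libraries held 21.4 to 35.8 M (mega) reads in counted genes, and 33.2% to 44.7% of the reads came from the 13 mitochondrially encoded genes. Cardiomyocyte markers were abundant, with Tnnt2 reaching 226650.4. Tnnc1 had duplicate gene entries, each listed at 0 in all 16 libraries. That does not show that its RNA was absent, and the reason was not tested. The atrial markers Myl7 and Sln stayed at or under 6.44 and Myl4 at or under 81.1. None of 8 adipocyte markers, Adipoq and Plin1 among them, went above 18.4 (Cfd). Of the brown adipocyte markers, Ucp1 and Elovl3 stayed at or under 1.27, but Cidea reached 964 and Cox8b 8958. In bulk tissue, fewer cells of a type and less RNA of a gene per cell cannot be told apart. The summed count of 11 tested cardiomyocyte markers ranged over 1311454 to 1406892 for Sham-Veh, 1332197 to 1396859.9 for Sham-THZ1, 799356 to 1043978 for TAC-Veh and 1074503 to 1359075 for TAC-THZ1. Myh6 was the largest term of this sum in each group. Its mean was 501105 for Sham-Veh, 501809 for Sham-THZ1, 225634 for TAC-Veh and 303748 for TAC-THZ1, so the sum leans on this gene. A pair of libraries stood apart over the fatty acid genes. TAC-Veh replicate 2 was the lowest of its group for 32 of the 36 genes and the lowest of all 16 libraries for 31, and TAC-THZ1 replicate 2 was the highest of its group for 33, so the main counts are given with and without them. Both also stood at an end of their group in cell markers. TAC-Veh replicate 2 had the lowest summed cardiomyocyte and the highest summed fibroblast markers of all 16 libraries, and TAC-THZ1 replicate 2 the highest cardiomyocyte and the lowest fibroblast sum of its group.

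With TAC, most of the route was lower. Of the 36 genes, 30 were lower in TAC-Veh than in Sham-Veh and 0 were higher at an adjusted p under 0.05 in limma, a linear model fitted over all genes tested, when 23.6% of all genes tested were lower and 21.4% were higher. The median log2 fold change of the 36 genes was -0.71, against -0.0030 over all genes tested, and 32 of the 36 lay below 0. For 28 of them every TAC-Veh library lay below every Sham-Veh library, a pattern seen in that direction for 19.1% of all genes tested. All 11 genes of beta-oxidation and all 3 of the electron transfer flavoprotein were lower, as were 3 of 4 genes of uptake, 3 of 4 of activation, 4 of 5 of the carnitine route, 2 of 3 of malonyl-CoA metabolism and 4 of 6 of storage and lipolysis. Without the pair of libraries that stood apart, the same 30 genes were lower.

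With THZ1 in the TAC heart, most of the same route was higher. In TAC-THZ1 against TAC-Veh, 23 of the 36 genes were higher and 0 lower (15.1% of all genes tested were higher and 14.2% lower), with a median log2 fold change of 0.45 against 0.015 over all genes tested. For 18 genes every TAC-THZ1 library lay above every TAC-Veh library (9.53% of all genes tested), and Acaca alone showed the reverse (10.5%). The higher genes were 10 of 11 of beta-oxidation, 3 of 3 of the electron transfer flavoprotein, 3 of 4 of activation, 3 of 5 of the carnitine route and 2 of 3 of malonyl-CoA metabolism, but 1 of 4 of uptake and 1 of 6 of storage and lipolysis. Without the pair of libraries that stood apart 17 of these 23 genes remained, with a median of 0.27. When only the TAC-Veh and TAC-THZ1 libraries entered the fit, which drops the tight sham groups from the estimate of the spread, 11 of the 23 remained (4.37% of all genes tested were higher). At an adjusted p under 0.01, 21 of the 36 genes were higher in the main fit and 0 in this narrower fit. Adjusted p-values given below for single genes are from the main fit of all 16 libraries.

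**Figure D1:**
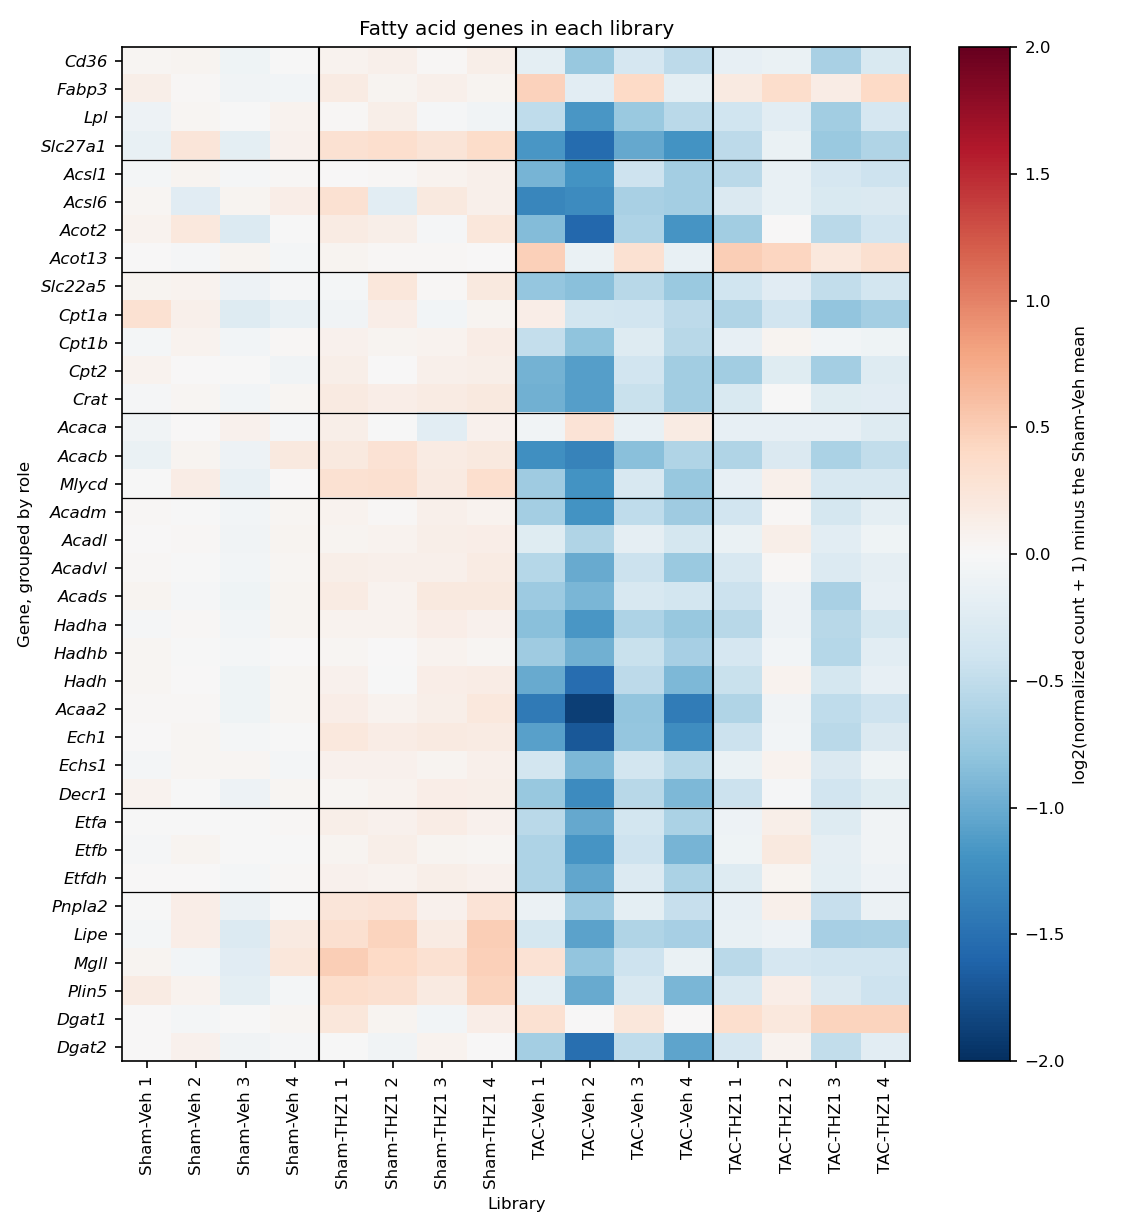
Heat map of the 36 genes (rows, grouped by role) in the 16 libraries (columns). Colour gives log2(normalized count + 1) minus the mean of the 4 Sham-Veh libraries, from -2 (blue) to 2 (red). The TAC-Veh columns are blue for most genes, TAC-Veh replicate 2 most of all. Fabp3, Acot13 and Acaca lie below the Sham-Veh mean in some TAC-Veh columns and above it in others, and Dgat1 is below it in none.

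These differences ran beside a change in cell markers. In TAC-Veh, 5 of the 11 cardiomyocyte markers tested were lower (Myh6, Ryr2, Tnni3, Tcap and Ldb3) and 0 higher. The other 6 (Tnnt2, Actn2, Mybpc3, Ttn, Tpm1 and Myom1) were not called, and 2 of the 11 lay above 0. Beside them, 6 of 8 fibroblast and 4 of 6 macrophage markers were higher, and of 6 endothelial markers 1 was higher and 2 were lower. Over all genes tested, 23.6% were lower and 21.4% higher. With THZ1 in TAC, 3 of the cardiomyocyte markers were higher, 5 of the fibroblast markers lower, and of the endothelial markers 1 was higher and 3 were lower (15.1% of all genes tested were higher and 14.2% lower). In TAC-THZ1 against Sham-THZ1, 4 of the 6 endothelial markers were lower and 1 was higher, beside 12.8% lower and 11.4% higher over all genes tested. In the same comparison 3 of the 6 macrophage markers were higher and 0 lower. Of the 8 fibroblast markers 2 were higher and 1 lower, and of the 11 cardiomyocyte markers 1 was higher and 2 lower. The 5 erythroid markers passed in none of the comparisons. The summed fibroblast markers went from 54429 to 94539 in TAC-Veh to 30007 to 42604 in TAC-THZ1, against 28734 to 31860.2 in Sham-Veh. When each library was shifted so that the cardiomyocyte markers had the same mean, the median of all genes tested moved to 0.36 for TAC and to -0.26 for THZ1 in TAC. All 11 markers entered that mean, the 5 that were lower with TAC included. On that scale 23 of the 30 genes remained lower with TAC (6.32% of all genes tested), with a median of -0.35 and Cd36, Cpt1b, Acadl, Acads, Pnpla2, Lipe and Plin5 lost, and Fabp3, Acot13, Acaca and Dgat1 were higher (52.2%). Likewise 17 of the 23 remained higher with THZ1 in TAC (3.4%), with a median of 0.17 and Acsl1, Slc22a5, Acacb, Acadl, Hadhb and Echs1 lost, and Cpt1a, Acaca and Mgll were lower (36.2%). The part of fibroblasts, macrophages and endothelial cells in the fatty acid genes was not tested.

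**Figure D2:**
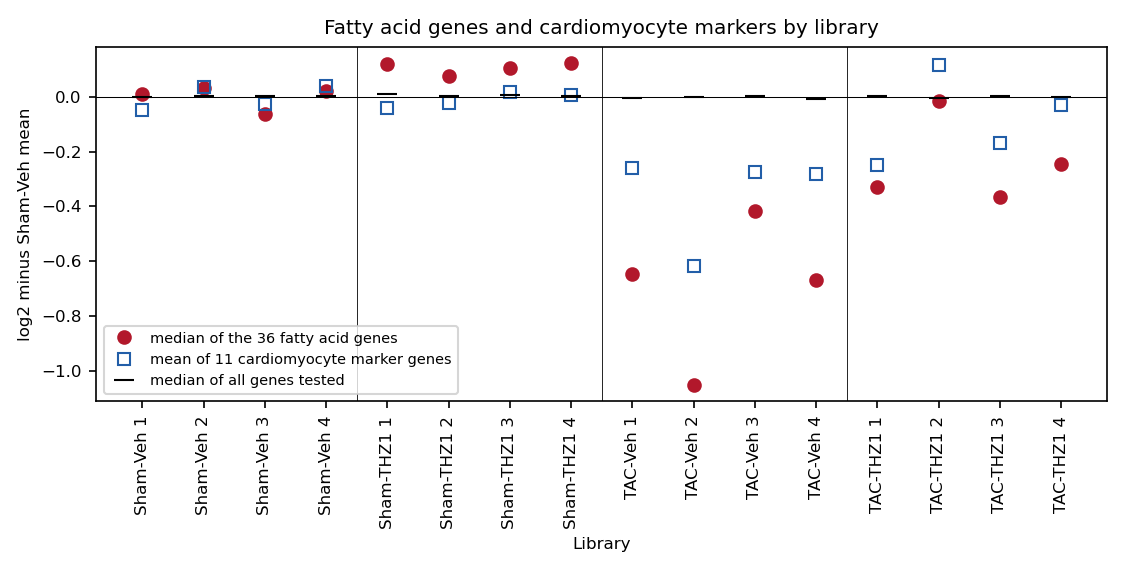
Median over the 36 genes (filled circles), mean over 11 cardiomyocyte markers (open squares) and median over all genes tested (dashes) in each library, as log2 minus the Sham-Veh mean. In every TAC-Veh library the fatty acid genes lie below the cardiomyocyte markers, which are themselves below 0, and all 4 Sham-THZ1 circles lie above 0.

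Of the transporters, Cd36 (ENSMUSG00000002944; mm9, chr5:17287508-17394777, minus strand) encodes the membrane protein that takes up long-chain fatty acids. Its normalized counts were 54425, 54587, 49714 and 52629 for Sham-Veh, 55393, 56656, 53927 and 57080.3 for Sham-THZ1, 45982, 31267, 41912 and 36788 for TAC-Veh and 46874, 48238, 33569 and 42739 for TAC-THZ1. Every TAC-Veh and TAC-THZ1 library lay below every sham library, and the TAC groups overlapped. Cd36 fell by 0.45 with TAC (log2, SE 0.12, limma adjusted p = 0.00602), while its difference of 0.14 for THZ1 in TAC (95% interval -0.12 to 0.39) did not pass. Lpl, the lipoprotein lipase that frees fatty acids from circulating triglyceride, had 141623, 156673, 151753 and 159059.5 for Sham-Veh, 155393, 164743, 149512 and 144631 for Sham-THZ1, 107409, 67532, 91339.7 and 104188 for TAC-Veh and 115069.6, 131204, 93593 and 119955 for TAC-THZ1. All TAC libraries were again below all sham libraries, and the TAC groups overlapped. Lpl fell by 0.74 with TAC (SE 0.14, limma adjusted p = 0.000529) and differed by 0.32 with THZ1 in TAC (adjusted p = 0.0946).

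Slc27a1, which encodes the transport protein FATP1, moved most among the uptake genes. It read 2616, 3453, 2549 and 3089 for Sham-Veh, 3583, 3654, 3463 and 3733 for Sham-THZ1, 1299, 996, 1425 and 1274 for TAC-Veh and 2020.3, 2645, 1742 and 1923 for TAC-THZ1. The TAC-Veh libraries held 42.7% of the Sham-Veh mean and the TAC-THZ1 libraries 71.2%, with every TAC-THZ1 library above TAC-Veh and replicate 2 reaching into the Sham-Veh range. The log2 difference was -1.23 with TAC (SE 0.13, limma adjusted p = 2.2e-06) and 0.73 with THZ1 in TAC (SE 0.13, adjusted p = 0.000693). Fabp3, the heart's cytosolic fatty acid binding protein and, per kilobase of exon, the most abundant of the 36 in Sham-Veh, was 1 of the 4 genes above 0 with TAC. Its counts were 32365, 30426, 28464 and 28793 for Sham-Veh, 33461, 31168, 32159 and 31092 for Sham-THZ1, 41432, 25918, 39568 and 26239.6 for TAC-Veh and 34073, 38339, 33224 and 39499.8 for TAC-THZ1, and the TAC-Veh libraries fell on either side of the sham range. The log2 difference with TAC was 0.12 (95% interval -0.16 to 0.40) and did not pass.

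**Figure D3:**
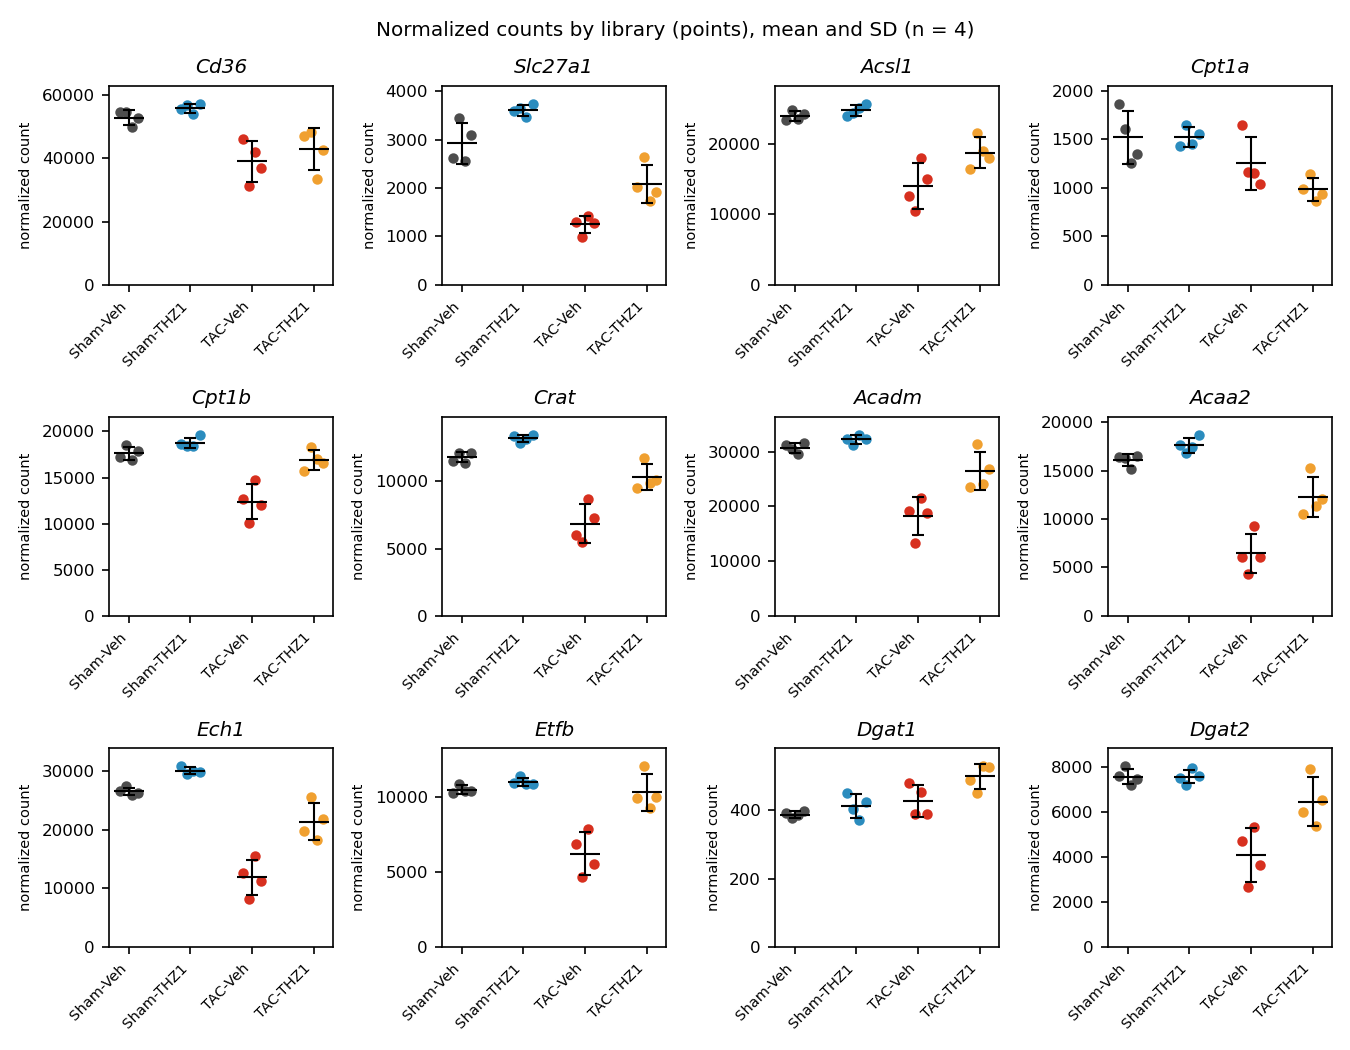
Normalized counts of 12 of the genes in each library (points), with the mean and SD of each group of 4. In Slc27a1, Crat, Acaa2, Ech1 and Etfb all TAC-THZ1 points lie above all TAC-Veh points, in Cd36 the TAC groups overlap, and in Cpt1a the TAC-THZ1 mean is the lowest of the 4.

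Activation to acyl-CoA is carried out by the acyl-CoA synthetases, of which Acsl1 is the main form in heart. Acsl1 counts were 23343, 24759, 23488 and 24247 for Sham-Veh, 23975, 24341, 25121 and 25666 for Sham-THZ1, 12613, 10447, 17976 and 14997 for TAC-Veh and 16448, 21593, 19039 and 18032 for TAC-THZ1. TAC-Veh lay below sham in every library and TAC-THZ1 between, with TAC-THZ1 replicate 1 inside the TAC-Veh range. Acsl1 fell by 0.80 with TAC (SE 0.12, limma adjusted p = 8.58e-05) and rose by 0.44 with THZ1 in TAC (adjusted p = 0.0133). Acsl6, a synthetase better known from brain and much less abundant per kilobase than Acsl1, had 464, 387, 472 and 499.8 for Sham-Veh, 562, 391, 517 and 485 for Sham-THZ1, 183, 189, 290.3 and 284 for TAC-Veh and 372, 407, 365 and 369 for TAC-THZ1. TAC-Veh lay below every other library, and TAC-THZ1 replicate 2 passed the lowest library of each sham group. The log2 change was -0.97 with TAC (SE 0.15, limma adjusted p = 7.19e-05) and 0.71 with THZ1 in TAC (adjusted p = 0.00238).

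Thioesterases cut acyl-CoA back to free fatty acid, and 2 were on the list. Acot2, the mitochondrial form, gave 1288, 1414, 1019 and 1221 for Sham-Veh, 1368, 1324, 1210.1 and 1441 for Sham-THZ1, 670.1, 414, 800.5 and 542 for TAC-Veh and 761, 1229.8, 841 and 941 for TAC-THZ1. TAC-Veh was below sham in every library and overlapped TAC-THZ1. Acot2 fell by 1.06 with TAC (SE 0.17, limma adjusted p = 0.000136) and rose by 0.65 with THZ1 in TAC (adjusted p = 0.00963), though its close neighbour Acot1 is nearly identical in sequence and short reads may not separate them. Acot13 was at 110.9% of the Sham-Veh mean in TAC-Veh and at 129.1% in TAC-THZ1. It passed neither with TAC (0.12, 95% interval -0.11 to 0.36) nor with THZ1 in TAC (0.24, 0.0083 to 0.47), but was higher in TAC-THZ1 than in Sham-THZ1 by 0.34 (limma adjusted p = 0.0342).

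To look for a shared element in the promoters, RefSeq windows from 250 bases before to 50 bases after each start were searched on both strands for AAGGTCA, the site bound by ERR as a monomer, and for AGGTCA repeated directly after 1 base (DR1, the element of PPAR with RXR), and matches to the pair can overlap because a DR1 whose spacer is A holds AAGGTCA. Windows were given for 28 of the 36 genes. AAGGTCA was in the windows of 3 of these genes (10.7%), Acadm, Acsl6 and Acacb, against 5.38% of all 27025 genes with a window. It was in 1 of 38 genes (2.63%) of the same pathway outside the list. DR1 was in 0 of the 28, against 0.0481% of all genes (13 of 27025). An exact repeat this rare was all but bound to be missing from 28 genes, so the 0 says nothing about them. The 250 bases before the start are shown for Acadm and Acsl6, where the match lies upstream of the start, from RefSeq on GRCm38.p6 and 5′ to 3′ on the strand of the gene, with the match in capitals as it reads on that strand (TGACCTT).
Acadm, chr3:153944644-153944893, minus strand: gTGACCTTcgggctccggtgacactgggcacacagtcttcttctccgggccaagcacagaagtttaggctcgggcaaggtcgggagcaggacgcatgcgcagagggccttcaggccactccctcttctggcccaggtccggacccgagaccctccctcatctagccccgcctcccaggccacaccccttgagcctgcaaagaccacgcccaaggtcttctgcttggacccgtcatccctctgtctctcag
Acsl6, chr11:54303574-54303823, plus strand: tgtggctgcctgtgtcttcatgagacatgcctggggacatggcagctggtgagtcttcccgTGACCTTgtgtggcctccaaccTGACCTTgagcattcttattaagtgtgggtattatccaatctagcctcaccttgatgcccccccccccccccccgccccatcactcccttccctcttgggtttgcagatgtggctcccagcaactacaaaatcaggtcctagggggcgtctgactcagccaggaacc
The Acadm window holds 1 match, 249 to 243 bases before the start, and the Acsl6 window holds 2, at 189 to 183 and at 167 to 161 bases before it. A match is only a run of letters, and binding was not measured here.

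The carnitine route begins at the cell membrane with Slc22a5, the carnitine transporter OCTN2. Its counts were 524, 530.2, 472 and 499 for Sham-Veh, 491, 590.3, 513 and 579 for Sham-THZ1, 294, 283, 344 and 303 for TAC-Veh and 383, 433, 359 and 392 for TAC-THZ1. No TAC-Veh library reached TAC-THZ1 and no TAC-THZ1 library reached Sham-Veh. Slc22a5 fell by 0.73 with TAC (SE 0.083, limma adjusted p = 5.7e-06) and rose by 0.36 with THZ1 in TAC (SE 0.083, adjusted p = 0.0049). Carnitine palmitoyltransferase 1, which makes acylcarnitine at the outer mitochondrial membrane and is inhibited by malonyl-CoA, has a muscle form, Cpt1b, and a liver form, Cpt1a. Cpt1b (ENSMUSG00000078937; mm9, chr15:89246836-89256294, minus strand) had 17247, 18507, 16917 and 17919 for Sham-Veh, 18629, 18403, 18462 and 19611 for Sham-THZ1, 12727, 10058, 14775 and 12049 for TAC-Veh and 15709, 18366, 17005 and 16578 for TAC-THZ1. Every TAC-THZ1 library lay above TAC-Veh, and replicates 2 and 3 were inside the Sham-Veh range. Cpt1b fell by 0.52 with TAC (SE 0.091, limma adjusted p = 0.000246) and rose by 0.46 with THZ1 in TAC (SE 0.091, adjusted p = 0.00173). Chkb overlaps Cpt1b on the same strand, so reads in the shared stretch are ambiguous.

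The liver form passed in neither of these comparisons. Cpt1a counts were 1863, 1608, 1251 and 1352 for Sham-Veh, 1431, 1649.8, 1449 and 1555 for Sham-THZ1, 1651, 1163, 1155 and 1043 for TAC-Veh and 993, 1147, 863 and 941 for TAC-THZ1. TAC-THZ1 was below every Sham-THZ1 library and TAC-Veh replicate 1 was in the sham range. The difference from Sham-THZ1 was -0.63 (SE 0.14, limma adjusted p = 0.0048), while those with TAC (-0.28) and with THZ1 in TAC (-0.33) did not pass, at adjusted p = 0.103 and 0.0792.

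Inside the mitochondrion Cpt2 turns acylcarnitine back to acyl-CoA and Crat, carnitine acetyltransferase, buffers acetyl-CoA. Cpt2 read 5109.7, 4919.5, 4836 and 4645 for Sham-Veh, 5314, 4921, 5245 and 5292 for Sham-THZ1, 2525, 2274, 3749.8 and 3007 for TAC-Veh and 3006, 4111, 3046 and 4062 for TAC-THZ1. Its TAC-Veh libraries lay below sham and overlapped TAC-THZ1. Cpt2 fell by 0.78 with TAC (SE 0.13, limma adjusted p = 0.000163) and differed by 0.31 with THZ1 in TAC (adjusted p = 0.0823). For Crat the counts were 11528, 12088, 11377 and 12086 for Sham-Veh, 13359.9, 12853, 13142 and 13432 for Sham-THZ1, 6037, 5453, 8654 and 7302 for TAC-Veh and 9516, 11765, 9908 and 10099 for TAC-THZ1. TAC-THZ1 lay between TAC-Veh and Sham-Veh except that replicate 2 reached into the Sham-Veh range. Crat fell by 0.80 with TAC (SE 0.11, limma adjusted p = 2.59e-05) and rose by 0.61 with THZ1 in TAC (SE 0.11, adjusted p = 0.000869).

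Malonyl-CoA, the brake on carnitine palmitoyltransferase 1, is made at mitochondria by acetyl-CoA carboxylase 2 (Acacb) and removed by malonyl-CoA decarboxylase (Mlycd), and both genes fell. Acacb counts were 8009.9, 9135, 8159 and 10039 for Sham-Veh, 10124, 10800.4, 9893 and 10077 for Sham-THZ1, 3770.5, 3471, 4929 and 5796 for TAC-Veh and 5797, 7217, 5701 and 6244 for TAC-THZ1. The highest TAC-Veh library lay just above the lowest TAC-THZ1 library, and both TAC groups were below sham. Acacb fell by 1.00 with TAC (SE 0.13, limma adjusted p = 1.77e-05) and rose by 0.50 with THZ1 in TAC (adjusted p = 0.00923). Mlycd stood at 2302, 2582, 2089 and 2326 for Sham-Veh, 2863, 2908, 2632 and 2919.7 for Sham-THZ1, 1419, 1009.6, 1853 and 1372 for TAC-Veh and 2077, 2485, 1854 and 1858 for TAC-THZ1. Here TAC-Veh replicate 3 lay just below TAC-THZ1 replicates 3 and 4. The log2 change of Mlycd was -0.75 with TAC (SE 0.14, limma adjusted p = 0.000366) and 0.57 with THZ1 in TAC (adjusted p = 0.00549). Acaca, the carboxylase of fatty acid synthesis and per kilobase the least abundant of the 36 genes in Sham-Veh, was 0.059 with TAC and -0.25 with THZ1 in TAC (adjusted p = 0.0587). Its TAC-THZ1 libraries at 283, 284, 283 and 266 were all below TAC-Veh at 303, 386, 288 and 357.

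Every gene of beta-oxidation was lower with TAC. The first step is taken by acyl-CoA dehydrogenases of different chain lengths, of which Acadm (ENSMUSG00000062908; mm9, chr3:153585321-153607596, minus strand) serves medium chains. Acadm read 31249, 30543, 29459 and 31524 for Sham-Veh, 32347, 31197, 33003 and 32271 for Sham-THZ1, 19064, 13331, 21585 and 18689 for TAC-Veh and 23582, 31291, 24028 and 26843 for TAC-THZ1. TAC-THZ1 was above TAC-Veh in every library, and its replicate 2 lay in the sham range. Acadm fell by 0.78 with TAC (SE 0.12, limma adjusted p = 7.99e-05) and rose by 0.55 with THZ1 in TAC (SE 0.12, adjusted p = 0.00293). The dehydrogenases for the other chain lengths were lower by smaller amounts, with Acadvl at -0.68, Acads at -0.58 and Acadl at -0.34 on the log2 scale. Acadl overlaps a pseudogene on its own strand, and its TAC difference was 0.015 after scaling to the cardiomyocyte markers. With THZ1 in TAC Acadl was 0.27 (limma adjusted p = 0.0335), a call lost without TAC-Veh replicate 2 or 4 or TAC-THZ1 replicate 2 or 4 and under several other alternatives, with adjusted p from 0.0117 to 0.911 over all alternatives. Acads was the only beta-oxidation gene that did not pass for THZ1 in TAC (0.25, 95% interval -0.014 to 0.52).

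Hadha and Hadhb encode the subunits of the mitochondrial trifunctional protein, which takes long chains through the later steps of a round. Hadha (ENSMUSG00000025745; mm9, chr5:30444841-30481702, minus strand) counts were 35388, 36461, 34542 and 37058 for Sham-Veh, 37787, 37647, 39494 and 38247 for Sham-THZ1, 19982, 16020.2, 23394 and 21118 for TAC-Veh and 24506, 33323, 24332 and 27967 for TAC-THZ1. The TAC-THZ1 libraries all lay above TAC-Veh and below Sham-Veh. Hadha fell by 0.85 with TAC (SE 0.11, limma adjusted p = 1.76e-05) and rose by 0.45 with THZ1 in TAC (SE 0.11, adjusted p = 0.00597). Its partner Hadhb was -0.69 with TAC and 0.40 with THZ1 in TAC. Hadh, the dehydrogenase of shorter chains, was -0.99 and 0.76, the hydratase Echs1 -0.55 and 0.44, and Decr1, the reductase for unsaturated chains, -0.86 and 0.60, all past the threshold in both comparisons.

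Acaa2, the mitochondrial thiolase that cleaves acetyl-CoA from the chain, had the largest fold of all 36 genes in both comparisons. Its counts were 16425, 16325, 15129 and 16494 for Sham-Veh, 17606, 16824, 17428 and 18676 for Sham-THZ1, 6062, 4373, 9291 and 6089 for TAC-Veh and 10556, 15294, 11328 and 12052 for TAC-THZ1. TAC-Veh kept 40.1% of the Sham-Veh mean and TAC-THZ1 76.5%, and no library of any group overlapped with TAC-Veh. Acaa2 fell by 1.37 with TAC (SE 0.16, limma adjusted p = 6.66e-06) and rose by 0.97 with THZ1 in TAC (SE 0.16, adjusted p = 0.000517). Ech1, an isomerase that prepares unsaturated chains, read 26531, 27359, 25939.8 and 26292 for Sham-Veh, 30830.1, 29451, 30002 and 29745 for Sham-THZ1, 12548, 8231, 15495 and 11204 for TAC-Veh and 19793, 25628, 18215 and 21783 for TAC-THZ1. The order was the same, with TAC-Veh lowest and TAC-THZ1 next, and every Ech1 value in Sham-THZ1 was above every one in Sham-Veh. Ech1 fell by 1.20 with TAC (SE 0.14, limma adjusted p = 7.2e-06) and rose by 0.87 with THZ1 in TAC (SE 0.14, adjusted p = 0.000452).

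**Figure D4:**
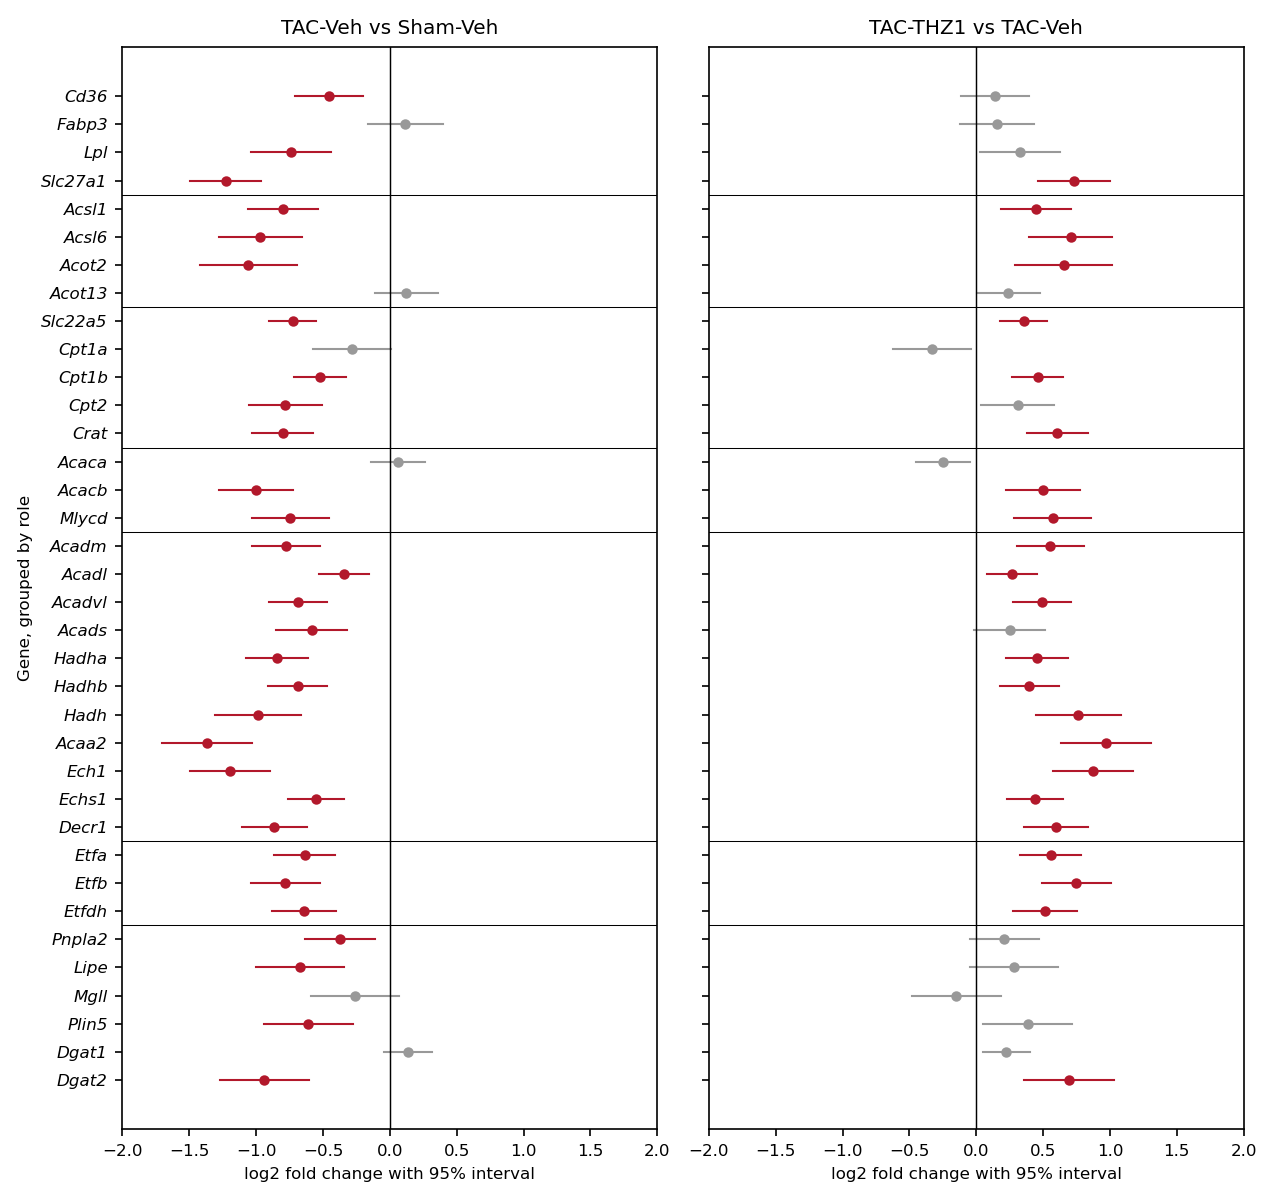
Log2 fold changes (points) with 95% intervals (lines) of the 36 genes for TAC-Veh against Sham-Veh (left) and TAC-THZ1 against TAC-Veh (right), with red for an adjusted p under 0.05 in limma and grey otherwise. The left panel has 30 red genes, all below 0, and the right panel 23, all above 0.

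The electron transfer flavoprotein, made of Etfa and Etfb, and its dehydrogenase Etfdh pass electrons from the acyl-CoA dehydrogenases to ubiquinone. Etfb counts were 10264, 10891, 10378 and 10425 for Sham-Veh, 10909, 11385, 10884 and 10833 for Sham-THZ1, 6871, 4648, 7844 and 5526 for TAC-Veh and 9922, 12058, 9237 and 10005 for TAC-THZ1. Every TAC-Veh library was below the other 3 groups, and TAC-THZ1 spanned the Sham-Veh range, at 98.2% of its mean. Etfb fell by 0.78 with TAC (SE 0.12, limma adjusted p = 8.8e-05) and rose by 0.75 with THZ1 in TAC (SE 0.12, adjusted p = 0.000454). Etfa gave 13492, 13495, 13467 and 13801 for Sham-Veh, 14728, 14352, 15035 and 14338 for Sham-THZ1, 9379, 6656, 10515 and 8791 for TAC-Veh and 12582, 14769, 11295 and 12850.2 for TAC-THZ1. TAC-Veh was again separate and below. Etfa fell by 0.64 (SE 0.11, limma adjusted p = 0.000185) and rose by 0.56 (adjusted p = 0.0015). Etfdh had 16441, 16429, 15927 and 16552 for Sham-Veh, 17294, 17185, 17732 and 17266 for Sham-THZ1, 10652, 7939.7, 13500.1 and 10545 for TAC-Veh and 13627, 17042, 14228 and 15171 for TAC-THZ1, and here too no TAC-Veh library reached another group. The log2 change of Etfdh was -0.64 with TAC (limma adjusted p = 0.000284) and 0.51 with THZ1 in TAC (adjusted p = 0.00347). None of the 3 genes passed between TAC-THZ1 and Sham-THZ1, where the log2 differences were -0.19 for Etfa, -0.10 for Etfb and -0.21 for Etfdh. All 3 lay below 0, and every Etfdh library of TAC-THZ1 was below every Sham-THZ1 library, so equal levels were not shown.

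Of the storage and lipolysis genes 4 of 6 were lower with TAC and 1 of 6 was higher with THZ1 in TAC, when 23.6% and 15.1% of all genes tested were, so the latter share was near that of all genes. Pnpla2 (ENSMUSG00000025509; mm9, chr7:148641097-148646642, plus strand), the triglyceride lipase ATGL, read 6631, 7289.9, 6117 and 6601 for Sham-Veh, 7880.5, 8041, 7045 and 8049 for Sham-THZ1, 6136, 4033, 5775 and 4836 for TAC-Veh and 5917, 7135, 4803 and 6108 for TAC-THZ1. TAC-Veh overlapped both Sham-Veh and TAC-THZ1. Pnpla2 fell by 0.37 with TAC (SE 0.12, limma adjusted p = 0.0207), a call lost without Sham-Veh replicate 2 or TAC-Veh replicate 2, with adjusted p from 0.00633 to 0.896 over all alternatives. Its difference with THZ1 in TAC was 0.21 (95% interval -0.05 to 0.47). Lipe, the hormone-sensitive lipase, had 1055, 1191, 896 and 1234 for Sham-Veh, 1355, 1486, 1214 and 1522 for Sham-THZ1, 849, 518, 712 and 687 for TAC-Veh and 976, 1017, 684 and 692 for TAC-THZ1. All TAC-Veh libraries lay below Sham-Veh, and TAC-THZ1 replicates 3 and 4 lay inside the TAC-Veh range. Lipe fell by 0.67 with TAC (SE 0.16, limma adjusted p = 0.00232) and differed by 0.28 with THZ1 in TAC (adjusted p = 0.186).

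Plin5, which coats lipid droplets and tethers them to mitochondria, counted 2567, 2402, 2004 and 2232 for Sham-Veh, 2938, 2859, 2591 and 3115 for Sham-THZ1, 2007, 1139.8, 1827 and 1218 for TAC-Veh and 1832, 2500.2, 1869 and 1723 for TAC-THZ1. TAC-Veh replicate 1 reached the Sham-Veh range, and the 2 TAC groups overlapped. Plin5 fell by 0.61 with TAC (SE 0.16, limma adjusted p = 0.00522) and differed by 0.38 with THZ1 in TAC (adjusted p = 0.079). Dgat1 and Dgat2 are unrelated enzymes that both complete triglyceride synthesis. Dgat2 counts were 7579, 8041, 7215 and 7456 for Sham-Veh, 7524, 7219, 7955 and 7589 for Sham-THZ1, 4722, 2653, 5322 and 3649.9 for TAC-Veh and 6019, 7914, 5393 and 6532 for TAC-THZ1. TAC-Veh was below every other library, and TAC-THZ1 replicate 2 was inside the sham range. Dgat2 fell by 0.94 with TAC (SE 0.16, limma adjusted p = 0.000194) and rose by 0.70 with THZ1 in TAC (adjusted p = 0.00422). Dgat1 was 0.14 with TAC and 0.23 with THZ1 in TAC, neither past the threshold, and higher in TAC-THZ1 than in Sham-THZ1 by 0.28 (limma adjusted p = 0.0264). Mgll, the monoglyceride lipase, passed in neither comparison, with log2 differences of -0.26 for TAC (95% interval -0.59 to 0.071) and -0.15 for THZ1 in TAC (95% interval -0.48 to 0.18).

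In hearts without constriction THZ1 left none of the fatty acid genes past the threshold. In limma 0 of the 36 genes passed for Sham-THZ1 against Sham-Veh, when 0.0225% of all genes tested were higher and 0.045% lower. The edgeR test also called 0 on the recovered reads (0.03% of all genes higher and 0.045% lower), as did DESeq2 (0.0975% and 0.15%). At an unadjusted p under 0.05, 3 genes were higher (3.36% of all genes tested), which were Mgll, Lipe and Slc27a1, named after their values were seen. The differences were small and mostly of 1 sign, since 34 of the 36 genes lay above 0, with a median log2 difference of 0.094 against 0.0026 over all genes tested. For 14 genes every Sham-THZ1 library lay above every Sham-Veh library (6.29% of all genes tested). When the sham groups were fitted alone, without the wider spread of the TAC groups, 8 genes were higher (2.15% of all genes tested), which were Slc27a1, Crat, Mlycd, Ech1, Pnpla2, Lipe, Mgll and Plin5. Mgll, at 3349, 3103, 2759 and 3758 in Sham-Veh and 4515, 4244, 3960.1 and 4496 in Sham-THZ1, had the largest of these differences (0.42 on the log2 scale). The summed cardiomyocyte markers of the sham groups overlapped. The spread was unequal among groups, with a median SD over the 36 genes of 0.060 for Sham-Veh, 0.051 for Sham-THZ1, 0.30 for TAC-Veh and 0.18 for TAC-THZ1 on the log2 scale.

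TAC-THZ1 hearts were still below the treated sham hearts for most of the route. Of the 36 genes, 22 were lower and 2 higher (Acot13 and Dgat1) in TAC-THZ1 than in Sham-THZ1, against 12.8% lower and 11.4% higher over all genes tested, with a median of -0.37. Lower genes were 3 of 4 of uptake, 4 of 5 of the carnitine route, 7 of 11 of beta-oxidation and 4 of 6 of storage and lipolysis, and 0 of 3 of the electron transfer flavoprotein. Among the largest were Mgll at -0.83 (limma adjusted p = 0.00242), Slc27a1 at -0.81 (0.000878), Lipe at -0.75 (0.00393) and Acacb at -0.72 (0.00196). Without the pair of libraries that stood apart, 29 were lower and 2 higher. The count of 24 fell to between 10 and 14 when TAC-THZ1 replicate 1, 3 or 4 or any single Sham-THZ1 library was left out.

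The interaction asks whether THZ1 changed a gene by a different amount in TAC than in sham. It was positive for 3 genes, which were Acaa2 (0.84, SE 0.23, limma adjusted p = 0.0289), Ech1 (0.69, SE 0.20, adjusted p = 0.0376) and Etfb (0.68, SE 0.17, adjusted p = 0.022), and negative for 0, when 4.4% of all genes tested were positive and 5.62% negative. At an unadjusted p under 0.05 there were 21 genes, counted in either direction (13.7% of all genes tested were positive and 13.5% negative). Of the 36 interaction terms 31 lay above 0, with a median of 0.36 against 0.017 over all genes tested. After scaling to the cardiomyocyte markers 20 of the 36 terms lay above 0 and 16 below. Their median was 0.073 against -0.27 over all genes tested. On that scale 9 genes, counted in either direction, had an unadjusted p under 0.05 (2.6% of all genes tested were positive and 30.9% negative). Without the pair of libraries that stood apart, Etfb remained, Acaa2 and Ech1 were lost and Mgll was negative. The count rested on single libraries, since it was 0 without TAC-THZ1 replicate 2, 1 without Sham-Veh replicate 2 or 4 or Sham-THZ1 replicate 1, 2 or 3, 5 without TAC-Veh replicate 1 or TAC-THZ1 replicate 1, 6 without TAC-THZ1 replicate 3 and 17 without TAC-Veh replicate 3. For the remaining 33 genes, including Cd36 (0.059, 95% interval -0.30 to 0.42) and Pnpla2 (-0.0096, -0.38 to 0.36), a difference between the settings was not shown.

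Genes of the same pathway outside the list, 48 in number, were mixed. With TAC 26 of the 48 were lower and 5 higher, with a median of -0.25 (23.6% of all genes tested were lower and 21.4% higher). With THZ1 in TAC 18 were higher and 5 lower, with a median of 0.19 (15.1% and 14.2% of all genes tested). In sham 0 were called. Acot1, the cytosolic thioesterase next to Acot2, had 162, 144, 105 and 129.8 for Sham-Veh, 214, 242, 199 and 281 for Sham-THZ1, 17.6, 18.6, 39.6 and 16.2 for TAC-Veh and 56.8, 126, 53.7 and 61.4 for TAC-THZ1, and all its TAC-Veh values lay below those of every other group. Acot1 fell by 2.58 with TAC (SE 0.28, limma adjusted p = 3.13e-06) and rose by 1.65 with THZ1 in TAC (adjusted p = 0.000569). Fitm2, which helps form lipid droplets, was -1.03 with TAC (limma adjusted p = 1.24e-05) and 0.69 with THZ1 in TAC, and Agpat3, an acyltransferase of phospholipid synthesis, -0.60 (adjusted p = 6.22e-06) and 0.35. The 5 that were higher with TAC, named after their values were seen, were the desaturase Scd1 (0.84), Acot9 (0.67), Acsl5 (0.57), Lpin3 (0.52) and Fabp5 (0.43).

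Of 13 transcriptional regulators of the pathway, 10 were lower with TAC and 0 higher, when 23.6% and 21.4% of all genes tested were. With THZ1 in TAC 5 were higher and 0 lower (15.1% and 14.2% of all genes tested). Those with the smallest adjusted p for TAC were Esrrg, the estrogen-related receptor γ (-0.84, limma adjusted p = 3.28e-05), Rxra, the partner of PPAR (-0.67, 4.72e-05), and Ppargc1b, which encodes PGC-1β (-1.30, 0.000333). Esrrg read 1289, 1375, 1275 and 1343 for Sham-Veh, 1312, 1232, 1305 and 1276 for Sham-THZ1, 662, 561, 807 and 974 for TAC-Veh and 893, 980.2, 858 and 857 for TAC-THZ1, and both TAC groups lay under the sham groups. With THZ1 in TAC, Rxra was 0.30 (adjusted p = 0.0259), whereas Esrrg (0.29, adjusted p = 0.0768) and Ppargc1b (0.41, adjusted p = 0.2) did not pass.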

How the data were processed

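Ventricle RNA of 16 mice, in 4 groups of 4 libraries per the labels, was sequenced from a stranded mRNA kit. The authors aligned reads to mm9 with TopHat2 2.1.1, counted them per GENCODE gene with HTSeq in reverse-stranded mode and divided them by DESeq2 size factors estimated over all mouse libraries, so the deposited signal is a normalized count per gene. The values of every library came out as whole reads for 100% of values (tolerance 1e-06 reads), with 21.4 to 35.8 M (mega) reads per library in protein-coding genes. All 16 columns were matched to a sample.

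The main tests were made in R 4.3.3 by limma 3.58.1. Values were taken as log2(normalized count + 1), a scale that understates the folds of low genes, and all 16 libraries entered 1 model of group means, moderated by eBayes along a mean-variance trend and free of covariates. Genes needed a normalized count of 10 in 4 libraries, which left 13331, and p-values were adjusted by Benjamini and Hochberg over these genes in each of 5 contrasts. A gene was called at an adjusted p under 0.05. Alternatives were another pseudocount, filter, scaling or threshold, robust eBayes, library weights, only the groups compared, the replicate number as a block, edgeR 4.0.16 and DESeq2 1.42.0 on the recovered reads, and leaving out each library. A scaling without mitochondrial genes and leaving out a pair of libraries were chosen after seeing the data. Scripts were tested on simulated data.

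The 36 genes, the other lists and the tests were chosen with earlier results of these data known, so no list is independent evidence. Values in all 16 libraries are printed for Cd36, Cpt1b, Acadm, Hadha and Pnpla2, for up to 3 genes of each role with the smallest adjusted p for TAC among those called, and for genes called in the interaction, and Fabp3 and Cpt1a, printed in full as well, were picked after their values were seen. Of each other list, the 3 genes with the smallest adjusted p for TAC are named. Replicates of a group differed beyond counting noise (chi-square per degree of freedom 2.97 to 93.5), so none was a duplicate. The labels gave no batch or date. The p-values measure the spread between these libraries. Positions are from GENCODE on mm9, and promoter windows are from RefSeq on GRCm38.p6, with 8 of the 36 genes without a window.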

Additional observations from a re-analysis of the deposited data

Results flagged for a closer look

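In 6 of 144 groups of 4 libraries, a normalized count lay far from the other 3 by Dixon's test, when chance gives about 1 in 20. Acsl6 was highest in TAC-THZ1 replicate 2, at 407 against 365 to 372 in the others. Acaca was lowest in TAC-THZ1 replicate 4, at 266, against 283 to 284. In the sham groups, Acaa2 was lowest in Sham-Veh replicate 3, at 15129, Etfa was highest in Sham-Veh replicate 4, at 13801, Etfb was highest in Sham-THZ1 replicate 2, at 11385, and Pnpla2 was lowest in Sham-THZ1 replicate 3, at 7045.

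By the interaction term in limma, 3 of the 36 genes (8.33%) changed by another amount with THZ1 in TAC hearts than in sham hearts. Over all genes tested, 4.4% were positive and 5.62% negative at the same threshold. The log2 difference between the effects was 0.84 for the thiolase Acaa2, 0.69 for the isomerase Ech1 and 0.68 for the flavoprotein subunit Etfb, and all of them missed the threshold without TAC-THZ1 replicate 2.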

How the results depend on the processing

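With TAC, the 36 genes gave 30 calls, all lower, and every other setting stayed within 1.5 times that count (29 to 32 when leaving out a library). Both directions were added for that count, and with cardiomyocyte scaling 23 calls were lower and 4 higher (6.32% and 52.2% of all genes tested). For THZ1 in TAC, 23 became 11 with only the groups compared and 14 at a further minimum of 0.5 for the log2 fold (22 to 28 when leaving out a library), and edgeR and DESeq2 gave 24 and 25 higher and 1 lower each. In sham, 0 became 8 with only the groups compared and 1 with library weights (0 to 0 when leaving out a library). For TAC-THZ1 against Sham-THZ1, 24 became 8 at an adjusted p under 0.01 and 10 at that minimum of 0.5 (10 to 26 when leaving out a library). In that comparison 27 genes were lower and 2 higher with only the groups compared, and the same numbers were reached with library weights. For the interaction, 3 became 8 with quantile scaling, 5 with cardiomyocyte scaling (3 positive, 2 negative), 13 with library weights, 5 with scaling outside mitochondrial genes (chosen after seeing the data), 9 with DESeq2 and 0 at an adjusted p under 0.01 (0 to 17 when leaving out a library). For most of the settings above the share of all genes called is not given, so the counts cannot be judged against it. No interaction value was possible with only the groups compared. Acadl turned direction under cardiomyocyte scaling, to 0.015 with TAC and -0.0097 with THZ1 in TAC. The cause was not tested.

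Replicate numbers are only labels here. Deviations of same-numbered libraries correlated at -0.43 to 0.16, and 2 of 16 libraries correlated best with their own number. With the replicate block, calls were 30 lower with TAC, 22 higher and 1 lower for THZ1 in TAC, 0 in sham, 2 higher and 17 lower for TAC-THZ1 against Sham-THZ1, and 2 for the interaction. The lowest value of any of the 36 genes in any library was 183 normalized counts (Acsl6), and each group held 4 mice.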
